A study of Mus musculus with 6 samples.

Results

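Amino acid transporter genes are described here in DNT cells, which are T cells with neither CD4 nor CD8 on their surface, kept with or without IL-33. The 10 genes were listed by name (Slc7a5, Slc3a2, Slc1a5, Slc7a1, Slc7a6, Slc7a11, Slc38a1, Slc38a2, Slc1a4 and Slc43a1) and were found by their Ensembl identifiers among the 26128 genes of the deposited counts. The DNT cells had been made in culture from CD4+ T cells of adult wild type C57BL/6 mice (spleen, by the labels), which had been mixed with mature dendritic cells of DBA/2 mice and IL-2, and were then sorted as CD3+NK1.1-CD4-CD8- cells. Both groups received anti-CD3/CD28 beads for 48 h, which act on the T cell receptor and its costimulator, so that the control is an activated cell and not a resting one. The 3 control libraries had no IL-33, and the 3 IL-33 libraries had 50 ng/ml of it over the same time. No source used here says if libraries of a group stem from separate animals or cultures, so the p values measure the spread between these libraries, which may be technical. The question of this comparison was what IL-33 changed in the RNA of these cells.

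T cells that are activated through their receptor grow and divide, and for this they take up amino acids through transporters of the solute carrier families. Slc7a5 (LAT1) carries leucine and other large neutral amino acids and works as a pair with Slc3a2 (CD98 heavy chain), a glycoprotein that brings it to the cell surface. Slc7a6 and Slc7a11 need the same heavy chain. Leucine and arginine that enter the cell are sensed by the mTORC1 kinase complex. The transcription factor ATF4 acts in the response to a shortage of amino acids and is known to raise the RNA of several transporters.

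The libraries held from 20256342 to 22336050 counts, and each had from 20825 to 21116 genes with a count. Levels are in CPM, the usual unit for the counts of a gene relative to the total of its library, after TMM scaling. The quasi-likelihood test of edgeR compared the groups over 14671 genes, and its p values were adjusted by the method of Benjamini and Hochberg. All 7 T cell markers were present, with a summed level of 3018 to 3137 CPM in control libraries and 3128 to 3238 CPM in IL-33 libraries, of which Cd3g and Cd28 were higher and Lck lower with an adjusted p under 0.05 in edgeR. Of the genes of the markers removed by the sort, Cd4 had at most 1.08 CPM, and Cd8a had 535 to 561 CPM in control libraries and 393 to 410 CPM in IL-33 libraries (edgeR, adjusted p = 2.4e-26), so that the RNA of Cd8a was present although its protein was sorted against. Together these 4 genes, with Cd8b1 and Klrb1c, had 575 to 608 CPM in the control and 436 to 453 CPM with IL-33, most of it Cd8a. At an adjusted p under 0.05 in edgeR, 3 of them were lower (Cd4, Cd8a and Klrb1c) and 1 was higher, Cd8b1. Cd8b1 had 8.122 to 11.42 CPM in the control and 14.04 to 18.08 CPM with IL-33 (edgeR, adjusted p = 6.2e-08). Cd8a and Cd8b1 thus changed in opposite directions. The sum of 7 dendritic and myeloid markers was 57.0 to 59.8 CPM in the control and 30.8 to 35.6 CPM with IL-33, most of it Itgax, which some activated T cells also express and which had 52.2 to 55.8 and 24.7 to 27.8 CPM. Among these markers 3 passed the filter, and of them Itgax was lower and Itgam higher at an adjusted p under 0.05 in edgeR, so that the fall of the sum is that of Itgax alone. Itgam had 2.54 to 2.69 CPM in the control and 4.05 to 5.72 CPM with IL-33 (edgeR, adjusted p = 1.3e-04), and Cd14 had 14 to 26 counts and 21 to 47 counts (edgeR, adjusted p = 0.12). The other 4 genes were near 0, with at most 9 counts in any library for Flt3, Lyz2 and Adgre1 and at most 13 for Csf1r. The listed genes among 5 mast cell and basophil markers summed to 14.9 to 19.7 CPM in the control and 10.2 to 13.6 CPM with IL-33, and 3 natural killer cell markers to 381 to 384 and 357 to 376 CPM, nearly all of it Eomes. Among the mast cell and basophil markers Cpa3 was lower, with 9.23 to 13.2 CPM in the control and 6.39 to 7.47 CPM with IL-33 (edgeR, adjusted p = 8.3e-05). Ms4a2 and Ncr1 had 9 counts or fewer in every library. The part of the cells behind Cd8a, Cd8b1, Itgax and Cpa3 in the values below was not tested.

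With IL-33, 5 of the 10 transporter genes were lower and 0 were higher at an adjusted p under 0.05 in edgeR. In the whole experiment 13.9% of the genes tested were lower at an adjusted p under 0.05 and 13.6% were higher. The 5 were Slc7a1, Slc38a2, Slc38a1, Slc1a5 and Slc7a5, which carry arginine, glutamine, other neutral amino acids and leucine. In each of them all 3 IL-33 libraries lay below all 3 control libraries, which was so for 19.5% of the genes tested. Their changes were small: Slc7a5 fell by 9.87%, the least of the 5, and Slc7a1 fell by 14.5%, the most. Slc3a2, Slc7a6, Slc7a11, Slc1a4 and Slc43a1 did not pass the test. All 10 genes passed the filter on low counts and could be tested. A test finds small changes more easily in genes with many counts, and among the 2272 genes with a mean of at least 100 CPM, a limit chosen after the values had been seen, 23.1% were lower and 28.5% higher, beside 5 of the 6 transporter genes at that level that were lower. None of the 10 genes reached the fold change of 1.5 together with the adjusted p (4.87% of the genes tested did so). In DESeq2 the number past both thresholds was 0 too, and the number lower at an adjusted p under 0.05 was 5. The median log2 fold change of the 10 genes was -0.15, beside -6.3e-04 over all genes tested. Together the 10 genes made up 1767 to 1789 CPM in the control libraries and 1576 to 1630 CPM in the IL-33 libraries. In bulk RNA, fewer cells that express a gene and less of its RNA in each cell cannot be told apart.

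**Figure D1:**
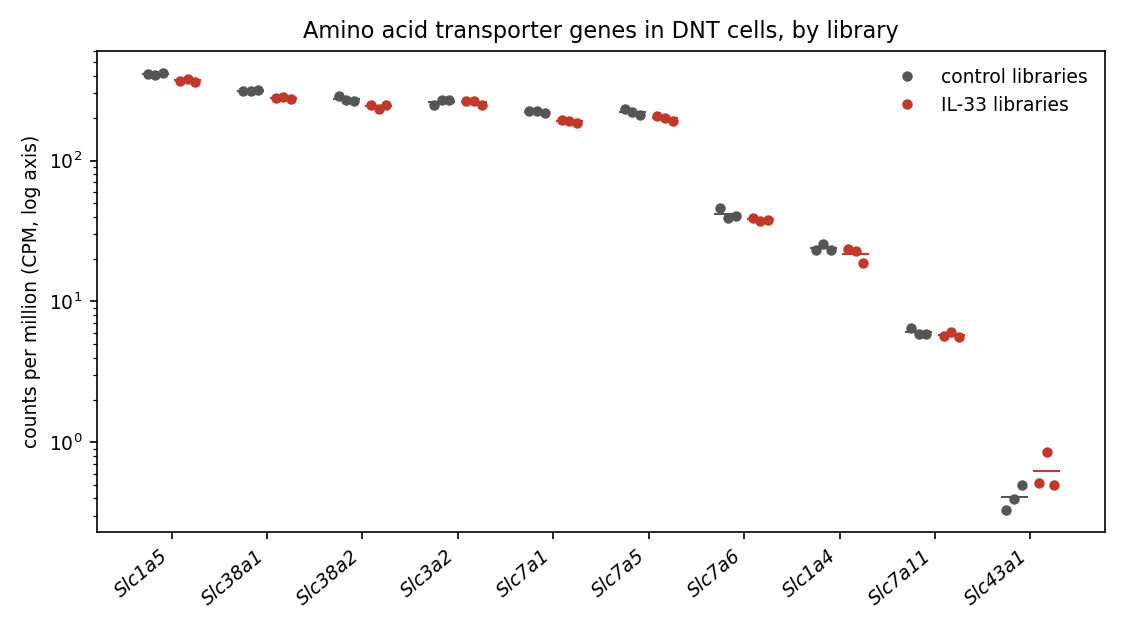
Level of each transporter gene in CPM (log axis) in the 3 control libraries (grey) and the 3 IL-33 libraries (red), with a bar at each mean. The 6 genes on the left lie between 185.5 and 421 CPM, and in 5 of them, all but Slc3a2, the red points lie below the grey ones.

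**Figure D2:**
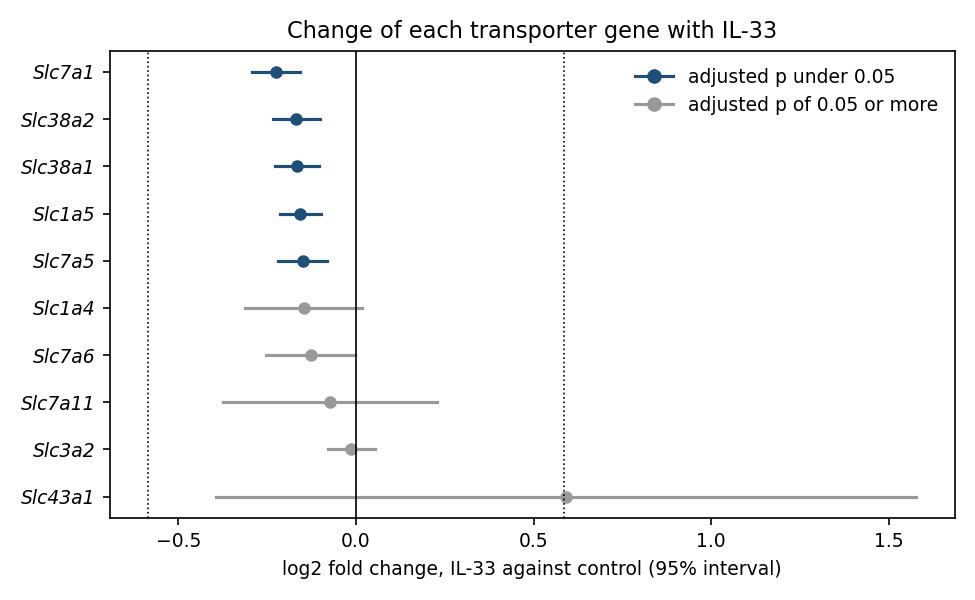
Log2 fold change of each gene with IL-33 against control (points) and its 95% interval from the edgeR fit (lines), with dotted lines at a fold change of 1.5 either way. The 5 genes in blue, those with an adjusted p under 0.05, lie left of 0 with intervals that leave out 0. The intervals are not adjusted, and that of Slc7a6, in grey, ends at -0.0015 and so leaves out 0 too. The wide interval of Slc43a1 is that of a gene with 7 to 18 counts in a library.

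Leucine and the other large neutral amino acids enter T cells by the pair of Slc7a5 and Slc3a2, of which 1 gene fell. Slc7a5 (ENSMUSG00000040010), on chromosome 8 from 121881150 to 121907694 of GRCm38, had 232, 221 and 212 CPM in the control libraries and 208, 199.6 and 192 CPM in the IL-33 libraries. The lowest control library was thus close to the highest IL-33 library, and the groups did not overlap. Its means were 222 ± 10.1 CPM and 199.7 ± 8.09 CPM (SD, n = 3 each), or -0.15 ± 0.035 as log2 fold change with its SE (edgeR, adjusted p = 3.8e-04). Slc3a2 (ENSMUSG00000010095, chromosome 19 from 8706882 to 8723369) had 248, 268 and 267.5 CPM in the control and 263, 263 and 249 CPM with IL-33. These groups overlapped, with the lowest value of all 6 libraries in a control library. The log2 fold change of Slc3a2 was -0.013 with a 95% interval from -0.079 to 0.052 (edgeR, adjusted p = 0.813).

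Glutamine, which dividing T cells use for energy and for nucleotides, is carried by Slc1a5 and by the sodium-coupled transporters Slc38a1 and Slc38a2, and all 3 genes fell. Slc1a5 (ENSMUSG00000001918, chromosome 7 from 16781340 to 16798274), which encodes the exchanger ASCT2, had 413, 406 and 421 CPM in the control libraries and 370.1, 378 and 363 CPM in the IL-33 libraries. The gap of 1 group to the other was larger than the range within either. It fell from 413 ± 7.42 to 371 ± 7.44 CPM (SD, n = 3 each), or -0.16 ± 0.029 as log2 fold change with its SE (edgeR, adjusted p = 6.0e-06). Slc38a1 (ENSMUSG00000023169, chromosome 15 from 96571418 to 96642913), the gene of SNAT1, had 309.7, 311 and 315.5 CPM without IL-33 and 277, 284 and 274 CPM with it. Here too the groups were far apart against their spread, at -0.17 ± 0.031 as log2 fold change with its SE (edgeR, adjusted p = 6.8e-06). Slc38a2 (ENSMUSG00000022462, chromosome 15 from 96687392 to 96699730), the gene of SNAT2, which lies on the same chromosome and strand as Slc38a1, had 286, 271 and 265 CPM in the control and 249.8, 232 and 249 CPM with IL-33. Its means were 274 ± 10.6 and 244 ± 9.98 CPM (SD, n = 3 each), or -0.17 ± 0.033 as log2 fold change with its SE (edgeR, adjusted p = 2.2e-05).

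Arginine and lysine enter by Slc7a1, the cationic transporter CAT1, and Slc7a6 exchanges cationic for neutral amino acids in a pair with Slc3a2. Slc7a1 (ENSMUSG00000041313, chromosome 5 from 148327410 to 148399904) had 226, 223 and 216 CPM in the control libraries and 193, 190.5 and 185.5 CPM in the IL-33 libraries. This was the largest fall of the 5, from 222 ± 4.98 to 189.8 ± 3.99 CPM (SD, n = 3 each), or -0.23 ± 0.034 as log2 fold change with its SE (edgeR, adjusted p = 3.8e-08). Its 95% interval from -0.29 to -0.16 overlapped those of the other genes that fell, and whether it fell more than they did was not tested. Slc7a6 (ENSMUSG00000031904, chromosome 8 from 106168857 to 106198706) had 46.0, 38.9 and 40.5 CPM in the control and 39.4, 37.4 and 38.0 CPM with IL-33. A single control library stood above the other 5, and the groups overlapped. The log2 fold change was -0.13 (95% interval from -0.25 to -0.0015, edgeR, adjusted p = 0.129), and without control replicate 1 it was -0.053.

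The bases before the gene start are shown for Slc7a1 and Slc38a2, the genes that fell and have a promoter window in the RefSeq table used here (build GRCm38.p6). Such windows, of 250 bases before and 50 after the start, were at hand for 7 of the 10 genes, and Slc7a5, Slc1a5 and Slc38a1 had none. They were searched on both strands for TGATGNAA, the core of the element to which ATF4 and C/EBP factors bind as a pair, and for CACGTG, the E-box to which MYC and related factors bind. Any match would stand in capitals, and none is in the window of Slc38a2 or in either of the 2 windows of Slc7a1, of which the one at the start of the annotated gene is shown. This says only that these letters are absent from them.
Slc7a1, chr5:148399905-148400154, minus strand: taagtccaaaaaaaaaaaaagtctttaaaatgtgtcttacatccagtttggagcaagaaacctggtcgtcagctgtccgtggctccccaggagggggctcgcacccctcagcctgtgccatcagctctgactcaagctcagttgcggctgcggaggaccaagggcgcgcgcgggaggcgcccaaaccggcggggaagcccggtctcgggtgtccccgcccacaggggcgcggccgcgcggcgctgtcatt
Slc38a2, chr15:96699729-96699978, minus strand: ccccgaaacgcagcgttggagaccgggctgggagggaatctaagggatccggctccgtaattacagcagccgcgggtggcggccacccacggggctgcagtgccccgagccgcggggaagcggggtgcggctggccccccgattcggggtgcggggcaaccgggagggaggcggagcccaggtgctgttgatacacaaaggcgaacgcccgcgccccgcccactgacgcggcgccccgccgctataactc

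Cystine, the source of cysteine for glutathione, is taken up in exchange for glutamate by Slc7a11 (xCT) in a pair with Slc3a2. Slc7a11 (ENSMUSG00000027737, chromosome 3 from 49892526 to 50443614) had 6.46, 5.91 and 5.84 CPM in the control libraries and 5.67, 6.06 and 5.58 CPM in the IL-33 libraries, so that the groups overlapped. The log2 fold change was -0.073 with a 95% interval from -0.37 to 0.23 (edgeR, adjusted p = 0.772), and it was -0.026 without control replicate 1 and -0.047 without IL-33 replicate 3. Slc1a4 (ENSMUSG00000020142, chromosome 11 from 20302180 to 20332713), the gene of ASCT1, which exchanges alanine, serine and cysteine, had 23.1, 25.5 and 23.1 CPM in the control and 23.4, 22.7 and 18.7 CPM with IL-33. A single IL-33 library stood below the other 5. Its log2 fold change was -0.15, as large as that of Slc7a5 but with a standard error of 0.083 (edgeR, adjusted p = 0.192), and it was -0.051 without IL-33 replicate 3. Slc43a1 (ENSMUSG00000027075, chromosome 2 from 84838850 to 84863594), the gene of LAT3, a carrier of branched-chain amino acids, was close to the limit of detection. It had 7, 8 and 11 counts in the control libraries and 11, 18 and 11 with IL-33, and its log2 fold change of 0.59 had a 95% interval from -0.39 to 1.58 (edgeR, adjusted p = 0.409). Without IL-33 replicate 2, the library with 18 counts, it was 0.30. At these counts the interval of Slc43a1 held both no change and a rise past a fold change of 1.5. The 95% intervals of the other 9 genes lay within a fold change of 1.5 either way.

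Slc7a11 and Slc1a4 were the members whose promoter windows held TGATGNAA, a motif found in 3.97% of 32851 windows of the same length. They are shown because ATF4, whose own RNA rose 1.13-fold, is known to bind such elements. Neither gene passed the test. In Slc7a11 the motif stood once in each direction, at positions -66 to -59 and -47 to -40 before the gene start, and in Slc1a4 once on the opposite strand across the start itself, from -4 to 4. The capitals mark the matches. In Slc43a1 the window held CACGTG from -64 to -59, as did 7.15% of all windows. A match is not shown to be a site in these cells.
Slc7a11, chr3:50443623-50443709, minus strand: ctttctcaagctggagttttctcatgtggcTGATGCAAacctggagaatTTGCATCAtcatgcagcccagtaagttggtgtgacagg
Slc1a4, chr11:20332710-20332747, minus strand: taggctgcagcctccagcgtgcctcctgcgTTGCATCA

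The levels of the 10 genes were set beside each other in CPM per kb of exon, since a longer RNA gives more counts. In the control libraries Slc1a5 was the most abundant with 99.0 ± 1.78 CPM per kb, before Slc3a2 with 73.9 ± 3.23, Slc7a5 with 59.8 ± 2.72 and Slc38a2 with 31.0 ± 1.20 (SD, n = 3). Then came Slc7a1 with 19.2 ± 0.432 CPM per kb, Slc38a1 with 18.1 ± 0.172, Slc7a6 with 9.15 ± 0.812 and Slc1a4 with 6.09 ± 0.361 (SD, n = 3). Slc7a11 with 0.436 ± 0.0242 CPM per kb and Slc43a1 with 0.0715 ± 0.0152 were far below them (SD, n = 3). No neighbours in this order overlapped between the control libraries. The order was the same in the IL-33 libraries, where Slc7a1 at 16.1 to 16.8 CPM per kb and Slc38a1 at 15.9 to 16.5 CPM per kb overlapped. Those 2 genes changed places when the longest protein-coding transcript took the place of all exons, a choice made after the values had been seen, so their order rests on the length used. The genes that passed the test were thus the exchanger at the top of the order and 4 of the 5 that followed. The 4 lowest genes did not pass it. Of these, Slc7a6 and Slc1a4 had log2 fold changes of -0.13 and -0.15, close to the -0.15 of Slc7a5, but with larger standard errors. Those of Slc7a11 and Slc43a1 were -0.073 and 0.59.

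Ratios within a library do not depend on how libraries are scaled, and they were taken for a heterodimer and for 2 pairs of close relatives. The level of Slc7a5 per kb was 0.890, 0.787 and 0.753 of that of Slc3a2 in the control libraries and 0.751, 0.721 and 0.732 of it in the IL-33 libraries. The groups did not overlap but nearly met, and control replicate 1 stood above the other 5 libraries. The difference of the log2 ratios was -0.14 (exact permutation test, two-sided, p = 0.1, the smallest that 3 against 3 libraries can give, and 0.3 adjusted over 3 ratios), and it was -0.067 without control replicate 1. The ratio of Slc38a1 to Slc38a2 was 0.556, 0.589 and 0.610 in the control and 0.568, 0.628 and 0.563 with IL-33, a log2 difference of 0.0022 (exact permutation test, two-sided, p = 1). For Slc1a4 to Slc1a5 the ratio was 0.0595, 0.0669 and 0.0583 in the control and 0.0672, 0.0637 and 0.0548 with IL-33, a log2 difference of 0.0049 (exact permutation test, two-sided, p = 0.9). Of these relatives the groups overlapped in both ratios.

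**Figure D3:**
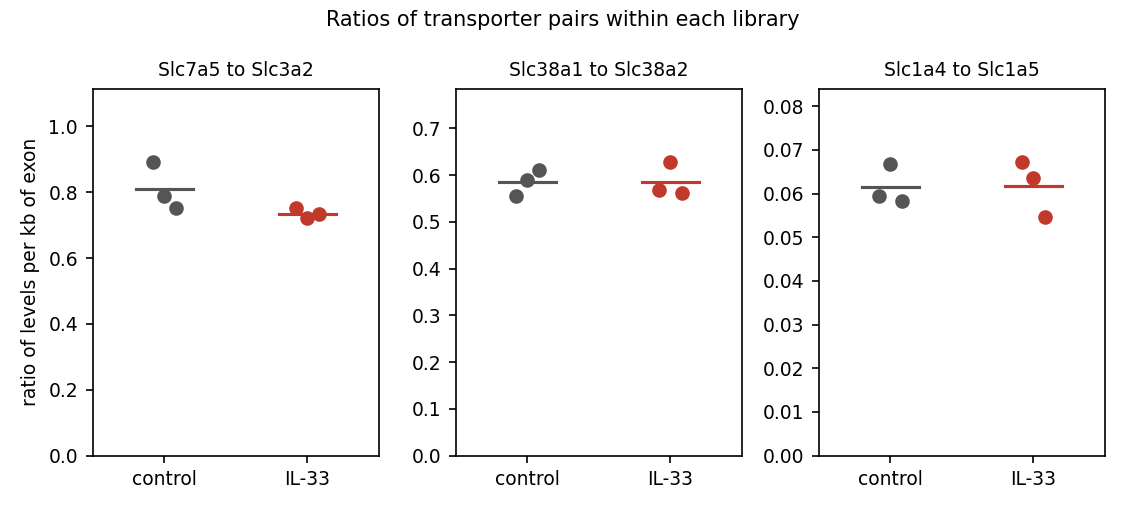
Ratio of the levels per kb of exon of 3 pairs of transporter genes in each library (points, grey for control and red for IL-33), with a bar at each mean and axes that start at 0. The ratio of Slc7a5 to Slc3a2 was between 0.721 and 0.751 with IL-33 and between 0.753 and 0.890 without it, and the groups of the other 2 ratios overlapped.

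Other genes of amino acid transport were read from fixed lists. Beside them, 13.6% of all genes tested were higher and 13.9% lower at an adjusted p under 0.05 in edgeR. Of 25 other transporters of the plasma membrane, 12 could be tested, of which 2 were higher and 1 lower at an adjusted p under 0.05, with a median log2 fold change of 0.10. These 3 are named after their values were seen. Of the 2 that were higher, Slc6a5 passed the filter on low counts only through the IL-33 libraries, where it was high. Its call is therefore no support for a rise, and its counts are given instead. Slc7a3, a cationic transporter of the family of Slc7a1, rose from 8.03 ± 0.281 to 11.05 ± 0.826 CPM (SD, n = 3 each), or 0.46 ± 0.12 as log2 fold change with its SE (edgeR, adjusted p = 0.00234). Slc6a9, a glycine transporter, fell from 5.37 ± 1.04 to 3.89 ± 0.601 CPM (SD, n = 3 each, edgeR, adjusted p = 0.0379) in groups that overlapped, and it was past 0.05 in DESeq2, with 0.135, in limma-voom, with 0.0693, without the filter on low counts, with 0.0582, and with a library left out (0.285 and 0.0688 without control replicates 1 or 2, 0.182 and 0.103 without IL-33 replicates 2 or 3). Slc6a5 (ENSMUSG00000039728, chromosome 7 from 49910146 to 49963856), a glycine transporter known from inhibitory neurons, had 0 counts in every control library and 36, 44 and 44 counts in the IL-33 libraries. With 3 counts as the limit in each control library, its level of 1.92 ± 0.219 CPM with IL-33 (SD, n = 3) was at least 13.5-fold higher, and the median of the list is the same with Slc6a5 at this bound. Of 8 tested transporters of the lysosome, whose median was -0.090, 1 was higher and 0 lower at that threshold in edgeR (Slc38a9, named after its value was seen). Slc38a9, which senses arginine in the lysosome for mTORC1, rose from 50.35 ± 2.30 to 63.6 ± 5.37 CPM (SD, n = 3 each), or 0.34 ± 0.054 as log2 fold change with its SE (edgeR, adjusted p = 2.6e-07). Among 9 tested carriers of mitochondria, with a median of -0.011, 1 was lower and 0 higher, the serine carrier Sfxn1 (edgeR, adjusted p = 0.0192), which was named after its value was seen and had 0.0682 in DESeq2 and from 0.0574 to 0.127 on leaving out replicate 1 or 2 of either group.

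Lists of genes that use or sense amino acids held genes that were higher and genes that were lower with IL-33. Of all genes tested, 13.6% were higher and 13.9% lower at an adjusted p under 0.05 in edgeR. Of 20 aminoacyl-tRNA synthetases, the enzymes that load amino acids on tRNA, 6 were higher and 4 lower at an adjusted p under 0.05 in edgeR, with a median log2 fold change of 0.0033. The 35 genes of amino acid sensing by mTORC1 had 4 higher and 8 lower, with a median of -0.019. Rragd, a GTPase that acts in this sensing and the 1 gene of this list past both thresholds, fell from 2.03 ± 0.234 to 1.18 ± 0.206 CPM (SD, n = 3 each, edgeR, adjusted p = 0.0356). The call was lost in DESeq2 (adjusted p = 0.105), without the filter on low counts (0.0517) and on leaving out replicate 1 or 3 of either group (0.0627 and 0.131 for the controls, 0.0567 and 0.142 for IL-33). Of 27 tested enzymes of amino acid use 6 were higher and 4 lower, with a median of 0.015. Gls2, a glutaminase, rose past both thresholds from 1.40 ± 0.355 to 2.39 ± 0.436 CPM (SD, n = 3 each, edgeR, adjusted p = 0.0232), which was lost in DESeq2 (adjusted p = 0.0926) and on leaving out control replicate 2 (0.138) or IL-33 replicate 3 (0.151). Gclc, the catalytic subunit of the enzyme that makes the first step to glutathione from the cysteine that Slc7a11 supplies, was named after its value was seen and fell from 46.5 ± 3.42 to 32.9 ± 0.745 CPM (SD, n = 3 each), or -0.50 ± 0.063 as log2 fold change with its SE (edgeR, adjusted p = 1.2e-10).

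ATF4 and its target genes outside transport had 6 of 22 higher and 2 lower at an adjusted p under 0.05 in edgeR, with a median of 0.068. Over all genes tested, 13.6% were higher and 13.9% lower at that threshold. This list shares Aars, Nars, Sars and Wars with the synthetases, Asns with the enzymes and Sesn2 with the sensing genes. The numbers of these lists are therefore not independent. Atf4 itself rose from 398 ± 6.99 to 448 ± 2.79 CPM (SD, n = 3 each), or 0.17 ± 0.028 as log2 fold change with its SE (edgeR, adjusted p = 4.8e-07). Chac1, an enzyme that degrades glutathione, rose from 13.9 ± 0.709 to 17.9 ± 2.04 CPM (SD, n = 3 each, log2 fold change 0.37, edgeR, adjusted p = 0.00239). Ddit4, Ddit3, Eif4ebp1 and the synthetase gene Sars were the others that rose, with log2 fold changes from 0.18 for Sars to 0.30 for Ddit4. Wars and Aars were lower, with log2 fold changes of -0.21 and -0.096, and the adjusted p of Aars in edgeR went from 0.0129 to 0.122 or 0.0765 on leaving out replicate 2 of the control or of IL-33. Asns, Sesn2 and Trib3, known targets of ATF4, had log2 fold changes of 0.078, 0.12 and 0.14 that did not pass (adjusted p = 0.153, 0.106 and 0.106 in edgeR), though each did without control replicate 1, with 0.0264, 0.0253 and 0.0228. Several transporter genes are known targets of ATF4 too. Among the members, Slc7a5, Slc38a2 and Slc7a1 were lower in the same libraries. Slc3a2 and Slc7a11, with log2 fold changes of -0.013 and -0.073, did not pass the test. Whether the change of Atf4 bears on any of these genes was not tested.

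**Figure D4:**
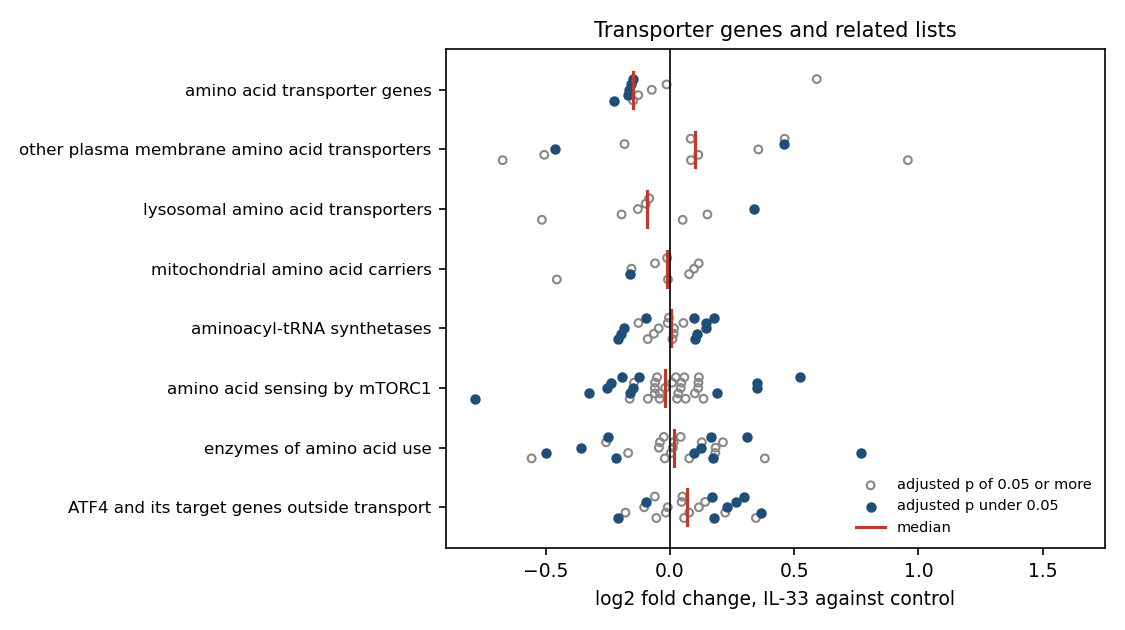
Log2 fold change with IL-33 against control of each tested gene of the transporter list and of 7 related lists, filled blue where the adjusted p in edgeR was under 0.05, with a red bar at the median of each list. The transporter genes at the top lie near a median of -0.15, the medians of the other lists lie between -0.090 and 0.10, and Slc6a5 is left out of the points since it had 0 counts in the control. Genes shared by lists are shown in each of them.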

How the data were processed

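RNA was sequenced from DNT cells in 3 control libraries and 3 libraries with IL-33, grouped by their labels. The table deposited by the authors has 6 columns of unnormalized counts, 1 a library, and a signal column (the authors' mean of normalized counts, to judge from its DESeq2 header), left aside here. The submitters' processing notes name Bowtie 0.12.2 and mm8. For the counter, its annotation and its strand setting: not given in the sources used here. Of 26128 identifiers, 26086 matched GENCODE M21 (GRCm38), the annotation behind all symbols, positions and lengths, and no other gene shared exon bases with any of the 10 transporter genes.

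Genes were filtered by edgeR's filterByExpr (minimum count 10, minimum total 15), which left 14671 and removed 0.110% of the counts, scaled by TMM and compared by edgeR's robust quasi-likelihood test without covariates (two-sided, edgeR 4.0.16 in R 4.3.3), with DESeq2 1.42.0 and limma 3.58.1 for the alternatives. The thresholds, those of the study, were 0.05 on the adjusted p and 1.5 on the fold change. The square root of the common dispersion was 0.0468. A total of 3 counts, or 0.134 to 0.148 CPM, was the limit of detection, which covers counting error only. The chi-square per gene between libraries of a group was 2.64 to 3.67, more than sampling noise. The fit was tested on simulated data with changes past the fold change of 1.5. This does not cover changes as small as those of the transporter genes that fell.

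The members and lists were chosen with earlier results of these data known. Named were the 10 members, Atf4, Asns, Sesn2, Chac1 and Trib3, and list genes past both thresholds with a mean of at least 1 CPM (at most 5 a list). The alternatives were DESeq2, limma-voom, size factors of DESeq2, no filter and a stricter one (at least 1 CPM throughout a group), the adjusted p alone, a test against the fold change, a replicate block, and leaving out single libraries. Scaling by library totals and the length of the longest transcript were added after the data had been examined. Some marker genes of other cell types are not reported here.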

Additional observations from a re-analysis of the deposited data

How the results depend on the processing

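In all 15 alternatives but the test against the fold change of 1.5, where the number was 0, the same 5 transporter genes had an adjusted p under 0.05 and were lower. The number past both thresholds was 0 throughout, and 5 on the adjusted p alone. The setting with the adjusted p alone is the main fit itself, so its values for the 10 genes were the same by construction. With these included, the 10 genes kept direction and side of the threshold in 140 of 148 comparisons. Of the rest, 5 were those of the test against the fold change and 3 were of Slc3a2, whose log2 fold change ran from -0.049 to 0.015 with 1 library left out (0.0048 without control replicate 2 or 3, and 0.015 without IL-33 replicate 3). Over all genes, 714 were past both thresholds, 363 higher and 351 lower. The test against the fold change gave 113 (75 higher and 38 lower), the adjusted p alone 4036 (1999 higher and 2037 lower), and 1 library left out from 621 to 719. With 1 library left out the log2 differences ran from -0.19 to -0.067 for Slc7a5 to Slc3a2, from -0.048 to 0.033 for Slc38a1 to Slc38a2 and from -0.057 to 0.090 for Slc1a4 to Slc1a5. Slc43a1 was not in the stricter filter and had no adjusted p in DESeq2. Whether the replicate numbers of the labels pair the libraries is not known. Deviations of same-numbered libraries from their group means correlated by only 0.0116, 0.00317 and 0.0107, although each library correlated best with its own number. Such low values cannot decide it, since the spread between libraries may be technical. With that number as a replicate block 666 genes were past both thresholds and 5 transporter genes were lower. Counts of 7 to 18 limit Slc43a1, and the spread between libraries limits Slc7a6 and Slc1a4.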
